A study of Mus musculus with 6 samples.

Results

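Metallothioneins and the genes that store, move and release iron were followed in cortical RNA of mice at d10 after microglia depletion. The set was fixed by name and holds 10 of the 23366 genes in the table. Mt1, Mt2 and Mt3 encode metallothioneins, Fth1 and Ftl1 the heavy and light subunits of ferritin, and Hmox1 the inducible heme oxygenase. Trf encodes transferrin, Tfrc the transferrin receptor, Slc40a1 the iron exporter ferroportin, and Cp the ferroxidase ceruloplasmin. All 10 genes were measured in every mouse and all 10 passed the filter on low values.

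RNA was sequenced from 3 control mice (A1, A2 and A3) and 3 microglia-depleted mice (A4, A5 and A6), 1 library per mouse, to ask which transcripts differed in the cortex at this time. All 6 mice were C57BL/6, and their age is not given in the sources used here. CX3CR1-CreERT2+/– was combined in the depleted mice with iDTR+/–, a diphtheria toxin receptor silenced until Cre acts, and littermate control mice had the Cre transgene without iDTR. Both genotypes received tamoxifen, and depletion was induced with diphtheria toxin. The paper reports that microglia had repopulated the brain by d10. Whether the control mice also received the toxin is not stated. An effect of the toxin itself therefore cannot be told apart from an effect of the loss and return of microglia. Cre was driven by the CX3CR1 promoter, which is active in microglia and in other CX3CR1-expressing cells. Whole cortical tissue was used, so for every gene below fewer cells of a type and less RNA per cell cannot be told apart.

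Metallothioneins are small cysteine-rich proteins that bind zinc and copper. Mt1 and Mt2 are inducible by metals, glucocorticoids and inflammatory signals and in brain are made mainly by astrocytes, whereas Mt3 is the form typical of the nervous system. Iron enters cells on transferrin through its receptor, is stored in ferritin, and leaves through ferroportin, with ceruloplasmin oxidizing it on the way out. In brain, transferrin RNA comes mainly from oligodendrocytes and the choroid plexus. Heme oxygenase frees iron from heme. When iron is scarce, iron regulatory proteins bind hairpins called iron-responsive elements, which blocks translation when the hairpin lies in the 5′ UTR and stabilizes the mRNA when it lies in the 3′ UTR. RNA levels do not show the first of these effects.

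The iron-responsive elements are printed because they separate the genes that iron can control through translation from the one it can control through mRNA stability. The search took C, 5 bases, CAGTG with A, C or T after it, and 5 further bases able to form all 5 pairs of the stem, G-U pairs included, in GENCODE M21 transcripts. Each element is shown over 29 bases, with the bulged C and the 6 bases of the loop in capitals. Positions are GRCm38.
Fth1 (chr19:9982732-9982760, plus strand): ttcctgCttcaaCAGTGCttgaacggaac
Ftl1 (chr7:45459779-45459807, minus strand): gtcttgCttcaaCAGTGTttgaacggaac
Slc40a1 (chr1:45925465-45925493, minus strand): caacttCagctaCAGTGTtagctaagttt
Tfrc, most upstream (chr16:32631219-32631247, plus strand): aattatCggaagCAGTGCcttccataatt
Tfrc, next (chr16:32631598-32631626, plus strand): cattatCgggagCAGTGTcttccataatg
Tfrc, next again (chr16:32631663-32631691, plus strand): ctatatCggagaCAGTGAtctccatatgt
Tfrc, most downstream (chr16:32631710-32631738, plus strand): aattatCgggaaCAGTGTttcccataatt
The elements found in Fth1, Ftl1 and Slc40a1 lie in the 5′ UTR, in exon 1 of the transcript. The 4 found in Tfrc lie in the 3′ UTR, in its last exon, 19 of 19. The search accepts only this loop and a fully paired stem, so it can miss elements, and 4 is a count of matches. The other 6 genes had no match. Among all protein-coding genes, a match was found in the 5′ UTR of 23 of 20580 (0.112%) and in the 3′ UTR of 100 of 20962 (0.477%).

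The promoters of the metallothioneins, which lie in 1 cluster on mouse chromosome 8, are printed because metal response elements are the sites through which metals induce these genes. Each is the 250 bases before the start site in RefSeq (GRCm38.p6), with matches to the metal response element core TGCACNC or TGCGCNC on either strand in capitals.
Mt1 (chr8:94178839-94179088, plus strand): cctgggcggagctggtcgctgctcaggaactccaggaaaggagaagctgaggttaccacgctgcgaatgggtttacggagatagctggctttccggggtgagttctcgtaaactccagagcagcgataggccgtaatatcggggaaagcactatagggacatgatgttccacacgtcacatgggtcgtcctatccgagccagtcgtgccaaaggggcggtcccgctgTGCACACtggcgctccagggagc
Mt2 (chr8:94172368-94172617, plus strand): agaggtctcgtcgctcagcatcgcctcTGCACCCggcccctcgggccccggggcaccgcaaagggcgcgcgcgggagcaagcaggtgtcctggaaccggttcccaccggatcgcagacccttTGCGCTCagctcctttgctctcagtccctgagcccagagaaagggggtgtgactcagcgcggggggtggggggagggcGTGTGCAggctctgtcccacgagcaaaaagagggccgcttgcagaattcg
Mt3 (chr8:94152357-94152606, plus strand): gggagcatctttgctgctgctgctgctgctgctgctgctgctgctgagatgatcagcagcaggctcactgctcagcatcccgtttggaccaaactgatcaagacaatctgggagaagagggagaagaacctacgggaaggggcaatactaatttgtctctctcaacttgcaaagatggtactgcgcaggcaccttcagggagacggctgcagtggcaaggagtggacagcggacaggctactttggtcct
The Mt1 window held 1 match, the Mt2 window 3 and the Mt3 window 0. These counts hold for the printed windows only and depend on the annotated start. Bases past that start were not searched, so the counts do not rank the genes by their number of sites. Of 32851 promoters of this length, 21.4% held at least 1 match and 1.26% held at least 3. The table of promoters covered 7 of the 10 genes, without Hmox1, Trf and Slc40a1. Beyond the metallothioneins, 1 of the Tfrc windows held 2 matches and the windows of Fth1, Ftl1 and Cp held 0. The antioxidant response element core TGACNNNGC was found once in the Mt2 window, in none of the other windows, and in 10.2% of all promoters. A match describes letters only.

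The libraries were not alike. The depth behind the FPKM values (fragments scaled by transcript length and library size), estimated from the spacing of low values, ran from 13.7 to 20.5 M fragments in A1 to A4, and was about 11.2 M in A6 and 3.50 M in A5. The spacing gives the lowest depth that makes the values whole, so a depth that is a whole multiple, as for A5, remains possible. The methods state the same read coverage for all samples, and the unequal estimates were not checked against it. A4 stood apart from the other depleted mice. Its 16 interferon response genes summed to 502 FPKM, against 96.6 in A5, 89.2 in A6 and 33.3 to 47.6 in control mice. Its 4 Y-linked genes summed to 5.56 FPKM beside an Xist level of 30.9 FPKM, and in the other 5 mice that sum was at most 0.16. Xist was 4.74 FPKM in control mouse A3 and between 38.1 and 46.7 in the other 4. According to the methods the mice were sex-matched, yet A4 held both kinds of transcript and A3 little of either, and the cause was not tested. The summed level of 14 microglia markers was 219 to 269 FPKM in control mice, 416 in A4, 261 in A5 and 324 in A6, so at d10 no depleted mouse was below the control range. Within that list the log2 fold change ran from −0.90 for the homeostatic marker Fcrls to 0.74 for Aif1, the gene of Iba1. The paper reports that microglia had repopulated by d10, with more Iba1-positive cells in gray matter. Neuron markers matched the labelled tissue, with Slc17a7, the cortical vesicular glutamate transporter, at 325 to 383 FPKM in every mouse.

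The study applied its threshold, an adjusted p under 0.1, to a count test that was not repeated here, so its calls and those below are not alike. None of the 10 genes passed that threshold with limma on log2(FPKM + 1), adjusted over all genes, and none reached an unadjusted p under 0.05. Of the 14385 genes tested, 4 (0.0278%) passed the first and 1515 (10.5%) the second, 4.79% with a higher and 5.74% with a lower mean in depleted mice. The groups did not overlap for 3 of the 10 genes, Ftl1 and Hmox1 with the depleted mice above the control mice and Fth1 with the depleted mice below, while this held for 17.6% of all genes tested, 8.21% above and 9.38% below. The mean of log2(FPKM + 1) was higher in depleted mice for 5 genes and lower for 5, and the median log2 fold change was 0.041, beside −0.0085 over all genes tested.

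**Figure D1:**
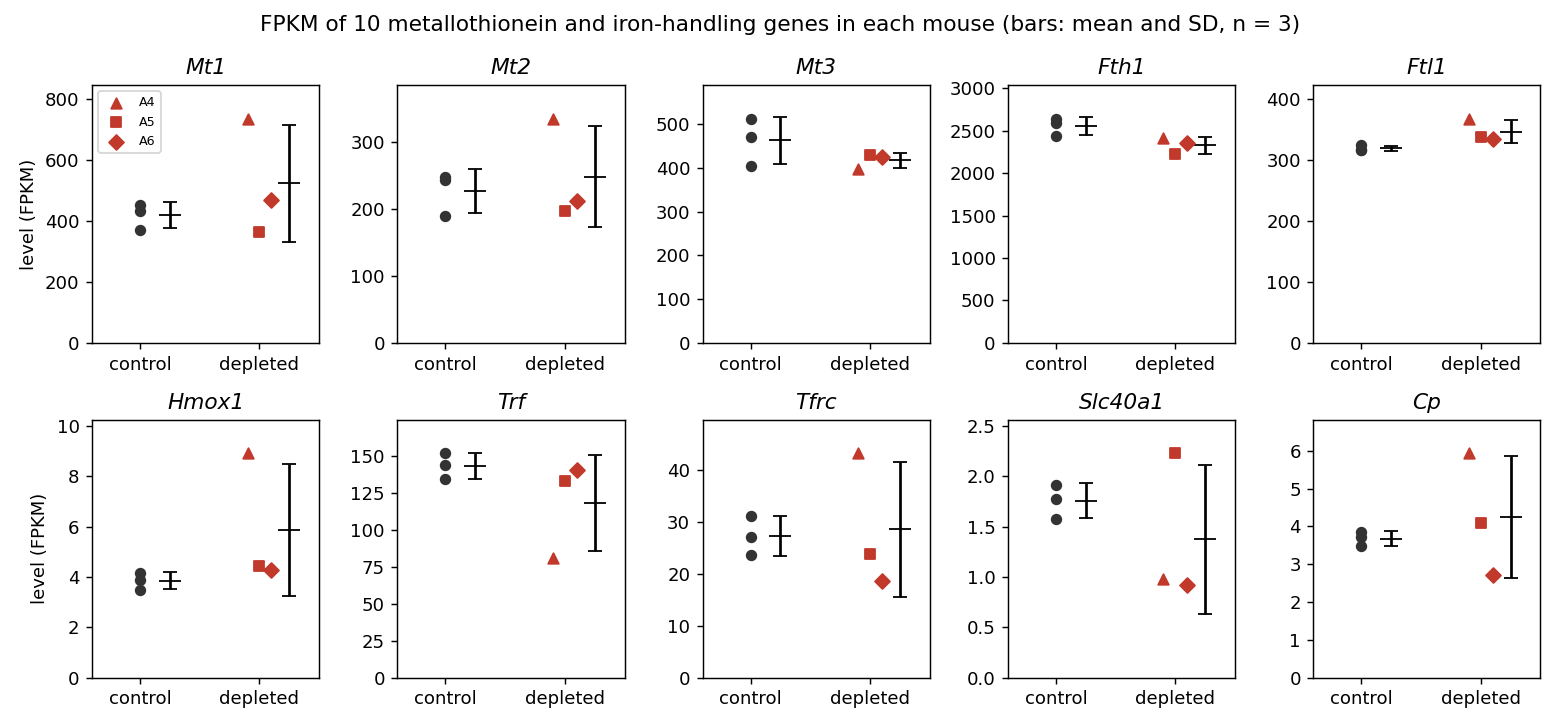
FPKM (vertical axes, starting at 0 and scaled per gene) of the 10 genes in each control mouse (black) and in depleted mice A4 (triangle), A5 (square) and A6 (diamond), with the mean and SD of each group beside the points. For Mt1, Mt2, Hmox1 and Trf the triangle of A4 lies far from the other 5 mice, and for Fth1, Ftl1 and Hmox1 the groups do not overlap.

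Levels per length spanned a wide range, and their order was the same in every mouse apart from pairs of neighbours. Fth1 had the highest mean of all genes in the table, 2443 FPKM over the 6 mice, and ranked 1 or 2 in each of them. Mt1 followed with a mean of 469.9 FPKM and Mt3 with 440.1 FPKM, and their ranges overlapped, Mt1 being the higher in 2 of 6 mice. Ftl1 (333 FPKM) and Mt2 (238 FPKM) overlapped in range, although Ftl1 was the higher within each of the 6 mice. Trf (131 FPKM) and Tfrc (27.9 FPKM) were each separated from their neighbours. Hmox1 (4.86 FPKM) and Cp (3.96 FPKM) overlapped, and Slc40a1 was the lowest at 1.57 FPKM.

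Mt1, which encodes an inducible metallothionein, was at 433 (A1), 369 (A2) and 451 FPKM (A3) in controls, against 734 (A4), 364 (A5) and 469 FPKM (A6) after depletion. A4 was the highest of all 6 mice, A5 was the lowest, and the groups overlapped. The means were 418 ± 43.1 and 522 ± 191 FPKM (SD, n = 3 each), a log2 fold change of 0.26 ± 0.22 (SE, limma adjusted p = 0.691), with a 95% interval from −0.24 to 0.77. Without A4 the log2 fold change was −0.012.

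Mt2, its neighbour and the other inducible form, was at 248 (A1), 189.7 (A2) and 244 FPKM (A3) in controls, against 335 (A4), 197 (A5) and 213 FPKM (A6) after depletion. A4 was again the highest mouse, whereas A5 and A6 lay inside the control range. The group means were 227 ± 32.5 and 248 ± 75.7 FPKM (SD, n = 3 each), a log2 fold change of 0.096 ± 0.19 (SE, limma adjusted p = 0.888), and −0.14 without A4. Of the 75-base windows of Mt2 transcripts, 30.2% also occurred in Gm45774, which is not in the table, while Mt1 and Mt3 shared none. Mt1 exceeded Mt2 in every mouse, with a ratio of 1.75, 1.94 and 1.85 in control mice and 2.19, 1.85 and 2.20 in depleted mice. The ratios of the groups overlapped (exact two-sided permutation test, p = 0.2, adjusted p = 0.267 over the 4 sums and ratios tested), and 3 mice against 3 give no p below 0.1.

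Mt3, the metallothionein typical of neural tissue, was at 471 (A1), 404 (A2) and 513 FPKM (A3) in controls, against 397.2 (A4), 429.7 (A5) and 425 FPKM (A6) after depletion. A4 was the lowest of the 6 mice for Mt3 and the highest for Mt1 and Mt2, and the groups overlapped. Mean levels were 463 ± 54.8 and 417 ± 17.5 FPKM (SD, n = 3 each), a log2 fold change of −0.14 ± 0.093 (SE, limma adjusted p = 0.613), with a 95% interval from −0.36 to 0.070. It was −0.24 without A2 and −0.066 without A3, and a GC-content correction turned it to 0.0084. Summed, the 3 metallothioneins gave 1152 (A1), 963 (A2) and 1208 FPKM (A3) in controls, against 1467 (A4), 990.0 (A5) and 1106 FPKM (A6) after depletion, overlapping groups with a log2 difference of 0.087 (exact permutation p = 0.8, adjusted p = 0.8). That difference was −0.075 without A4 and −0.011 without A2.

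Like Mt1 and Mt2, the summed level of reactive astrocyte markers was highest in A4. All 11 tested members of that list, which includes Cp, had a higher mean in depleted mice, 2 of them at an unadjusted p under 0.05 (4.79% of all genes in that direction), and the list's median log2 fold change was 0.46, or 0.12 without A4. Without A4, Serpina3n (−0.048), Lcn2 (−0.086), Cp (−0.11) and Aspg (−0.22) had a negative log2 fold change, and the others stayed positive. All 12 genes of the list summed to 98.8 to 125 FPKM in control mice, 399 in A4, 151 in A5 and 159 in A6. Gfap, the astrocyte intermediate filament, which was added after its values were seen, was at 88.3 (A1), 64.5 (A2) and 84.2 FPKM (A3) in controls, against 300.3 (A4), 109 (A5) and 120.1 FPKM (A6) after depletion. Gfap alone made up most of the sum in A4. The log2 fold changes of this list ran from 0.013 for Tnc, a matrix protein, to 1.00 for Timp1, an inhibitor of metalloproteinases. In A4, Tnc (0.68 FPKM) and S1pr3 (1.70 FPKM) were below the control mice, at 0.77 to 0.90 and 1.75 to 1.92 FPKM. S1pr3, Serpina3n, Lcn2 and Aspg are named after their values were seen. General astrocyte markers went the other way in 10 of 12 genes, from −0.27 for the bicarbonate transporter Slc4a4 to 0.32 for the transcription factor Sox9, with a summed level of 1784 to 1968 FPKM in control mice, 1702 in A4, 1720.5 in A5 and 1687 in A6. The part of either list in the metallothionein values was not tested.

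Glucocorticoid target genes, a class to which Mt1 and Mt2 also belong, had a higher mean in depleted mice in 12 of 15 genes, with none at an unadjusted p under 0.05. Their median log2 fold change was 0.095, and −0.071 without A4. Cdkn1a, a cell cycle inhibitor, had the highest value of the list, 0.71, with 44.6 FPKM in A4 against 10.9 to 14.2 in the other 5 mice. Mfsd2a, a lipid transporter, had the lowest, −0.19. The part of this list in the metallothionein values was not tested.

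**Figure D2:**
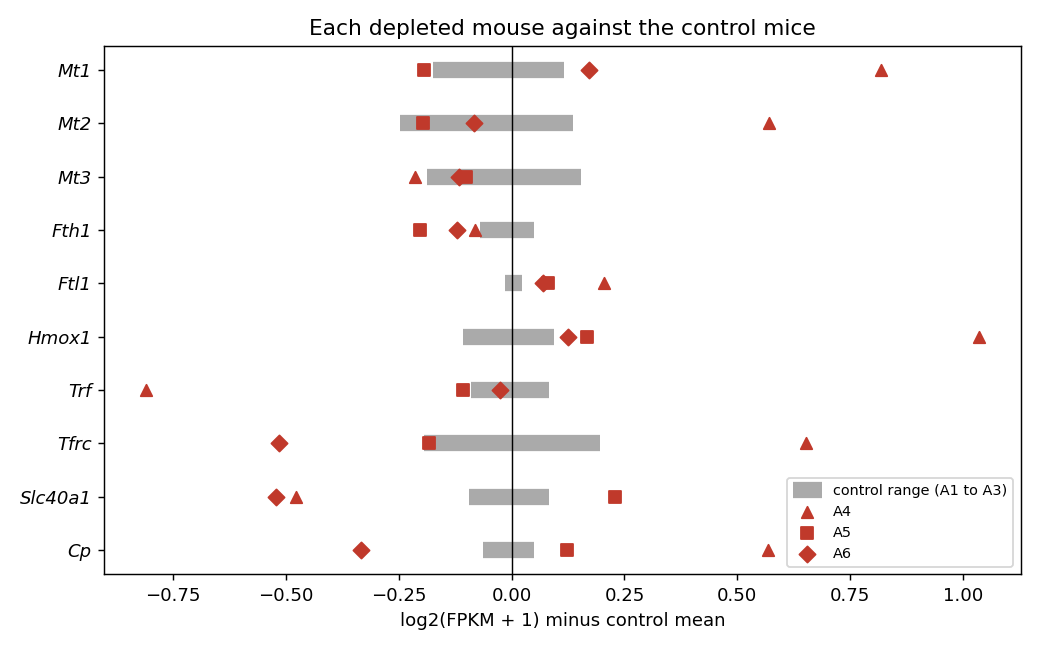
Difference of each depleted mouse from the mean of the 3 control mice, in log2(FPKM + 1), for the 10 genes, with the grey bars spanning the control mice. A4 (triangles) lies outside every bar and by the largest distance of the 3 depleted mice for 8 genes, from −0.81 for Trf to 1.04 for Hmox1, while A5 and A6 lie outside 7 bars each.

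Ferritin showed opposite small differences in its subunits. Fth1, the heavy chain with the ferroxidase site, was at 2596 (A1), 2433 (A2) and 2644 FPKM (A3) in controls, against 2415 (A4), 2221 (A5) and 2352 FPKM (A6) after depletion. Every depleted mouse was below every control mouse, by a small margin between A4 and A2. The means were 2558 ± 110.5 and 2329 ± 99.0 FPKM (SD, n = 3 each), a log2 fold change of −0.13 ± 0.070 (SE, limma adjusted p = 0.534), with a 95% interval from −0.29 to 0.025. Quantile normalization turned the value to 0.093. That method sets a value by its rank alone, and Fth1 ranked 1 or 2 in every mouse, so 0.093 does not weigh the size of the FPKM differences. The cause of the lower FPKM was not tested.

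Ftl1, the light chain, was at 324 (A1), 317 (A2) and 316 FPKM (A3) in controls, against 368 (A4), 337.5 (A5) and 335 FPKM (A6) after depletion. All 3 depleted mice lay above all 3 control mice, and the control mice lay within a narrow band. The means were 319 ± 4.34 and 347 ± 18.5 FPKM (SD, n = 3 each), a log2 fold change of 0.12 ± 0.066 (SE, limma adjusted p = 0.557), and the 95% interval ran from −0.032 to 0.27. The value was 0.075 without A4, 0.049 with quantile normalization and 0.21 with a GC-content correction. Of the 75-base windows of Ftl1 transcripts, 39.9% also occurred in Ftl1-ps1 and 19.1% in Gm10252, neither of which is in the table, so reads of such copies could count towards Ftl1.

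The ratio of Fth1 to Ftl1 does not move when a library is scaled by a single factor. It was 8.01, 7.67 and 8.36 in control mice and 6.56 (A4), 6.58 (A5) and 7.02 (A6) after depletion. The groups did not overlap, and A4 was not set apart from A5. With Fth1 lower and Ftl1 higher in every depleted mouse than in every control mouse, the ratio had to separate the groups. Its permutation p was thereby fixed at the minimum, so neither adds to the single-gene results. The means were 8.01 ± 0.347 and 6.72 ± 0.259 (SD, n = 3 each), a log2 difference of −0.25, for which the exact two-sided permutation test gave p = 0.1, the smallest it can give here, and an adjusted p = 0.267 over the 4 sums and ratios. Quantile normalization, which sets a value by its rank in the library, turned the log2 difference to 0.044. Fth1 ranked 1 or 2 in every mouse, so this method does not weigh the size of its FPKM differences. Summed ferritin RNA was 2920.25 (A1), 2750.41 (A2) and 2959.91 FPKM (A3) in controls, against 2784 (A4), 2559 (A5) and 2687 FPKM (A6) after depletion, overlapping groups with a log2 difference of −0.10 (exact permutation p = 0.2, adjusted p = 0.267). Both subunit genes carry an iron-responsive element in the 5′ UTR with the same stem bases next to the loop.

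**Figure D3:**
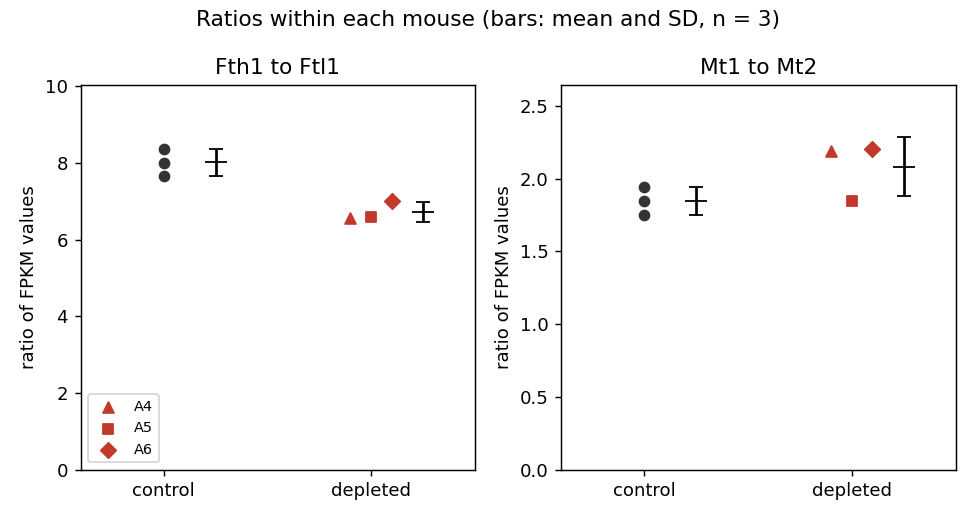
Ratio of Fth1 to Ftl1 FPKM (left) and of Mt1 to Mt2 FPKM (right) in each mouse, on axes that start at 0, with the mean and SD of each group. Every depleted mouse lies between 6.56 and 7.02 for the ferritin ratio, below the control mice at 7.67 to 8.36, whereas the metallothionein ratios overlap. The separation of the ferritin ratio follows from the separations of Fth1 and of Ftl1.

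Hmox1, which degrades heme and releases its iron, was at 4.16 (A1), 3.49 (A2) and 3.88 FPKM (A3) in controls, against 8.91 (A4), 4.43 (A5) and 4.27 FPKM (A6) after depletion. Again the 3 depleted mice lay above the 3 control mice, but A5 and A6 were only just above A1. The means were 3.84 ± 0.337 and 5.87 ± 2.63 FPKM (SD, n = 3 each), a log2 fold change of 0.44 ± 0.23 (SE, limma adjusted p = 0.539), with a 95% interval from −0.089 to 0.97. Without A4 the log2 fold change was 0.15. About 94, 112 and 111 fragments stood behind the control values against 192 in A4, 24 in A5 and 75 in A6, and at these depths the counting error alone was 20.3% in A5 and 11.5% in A6, larger than their distance from A1.

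Hmox1 is a target of NRF2, the regulator of the antioxidant response. A list of other NRF2 target genes, which also holds the regulators Nfe2l2, Keap1 and Bach1, had 8 genes with a higher and 8 with a lower mean. None of these 16 reached an unadjusted p under 0.05, and their median log2 fold change was 0.0021. The values ran from −0.18 for the exporter Abcc1 to 0.17 for the sulfiredoxin Srxn1. All 17 listed genes summed to 603.9 to 671.1 FPKM in control mice, 695.7 in A4, 684.4 in A5 and 670.8 in A6. The part of NRF2 in the Hmox1 values was not tested. Erythroid transcripts, a sign of blood left in the tissue, were lowest in A4, at 14.4 FPKM summed, against 57.8 to 105 in control mice, 84.0 in A5 and 103.6 in A6. Within that list Hba-a1 had the lowest value (−1.85) and Hba-a2 the highest (3.67), near-identical hemoglobin genes whose reads can be split, with Hba-a2 listed at 0 in 4 mice. The part of blood in the Hmox1 values was not tested.

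Trf, the iron carrier, was at 152 (A1), 134 (A2) and 144 FPKM (A3) in controls, against 81.2 (A4), 133 (A5) and 140.5 FPKM (A6) after depletion. A4 was far below the other 5 mice, A5 was just under the control range, and A6 was inside it. The means were 143 ± 8.62 and 118 ± 32.2 FPKM (SD, n = 3 each), a log2 fold change of −0.31 ± 0.18 (SE, limma adjusted p = 0.578), with a 95% interval from −0.74 to 0.11. Leaving out A4 gave −0.067. Of the 75-base windows of Trf transcripts, 55.8% also occurred in Gm20425, an annotated gene model that is not in the table.

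Oligodendrocyte markers were lower in depleted mice in all 14 genes, 6 of them at an unadjusted p under 0.05 and 8 without overlap, and none passed the threshold. This compares with 5.74% and 9.38% of all genes tested in that direction. Their median log2 fold change was −0.24, or −0.18 without A4, and they summed to 3138 to 3418 FPKM in control mice and to 2805 in A4, 2760.5 in A5 and 2860.2 FPKM in A6. Mbp alone made up 61.3% of that sum. In 10 of the 14 genes A4 was lower than A5, as it was for Trf. Ugt8a, an enzyme of myelin galactolipid synthesis, had the lowest log2 fold change (−0.70), with 14.9 (A1), 13.9 (A2) and 12.7 FPKM (A3) in controls, against 4.60 (A4), 10.3 (A5) and 10.85 FPKM (A6) after depletion. Mal, a myelin proteolipid, had the highest (−0.011).

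Choroid plexus markers, the other source of Trf, had a lower mean in all 9 genes tested, from −1.91 for the thyroxine carrier Ttr to −0.18 for Sostdc1, a secreted BMP inhibitor. Ttr was at 173 (A1), 314 (A2) and 160.1 FPKM (A3) in controls, against 64.3 (A4), 40.9 (A5) and 59.9 FPKM (A6) after depletion. The groups did not overlap for Ttr, and A2 stood above A1 and A3, whereas Trf in A2 was the lowest of the control mice. The part of oligodendrocyte and choroid plexus markers in the Trf values was not tested.

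Tfrc, the receptor that takes up transferrin, was at 31.2 (A1), 27.1 (A2) and 23.6 FPKM (A3) in controls, against 43.2 (A4), 23.8 (A5) and 18.7 FPKM (A6) after depletion. A4 was the highest mouse and A6 the lowest, with A5 inside the control range. The means were 27.3 ± 3.82 and 28.57 ± 12.95 FPKM (SD, n = 3 each), a log2 fold change of −0.015 ± 0.26 (SE, limma adjusted p = 0.988), with a 95% interval from −0.61 to 0.58. The value was −0.35 without A4 and 0.23 without A6. In A4 the receptor was 1.58 times and its ligand Trf 0.567 times the control mean.

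Slc40a1, the only known cellular iron exporter, was at 1.78 (A1), 1.58 (A2) and 1.92 FPKM (A3) in controls, against 0.980 (A4), 2.23 (A5) and 0.92 FPKM (A6) after depletion. A4 and A6 were below the control mice and A5 above them. Mean levels were 1.76 ± 0.171 and 1.38 ± 0.740 FPKM (SD, n = 3 each), a log2 fold change of −0.26 ± 0.21 (SE, limma adjusted p = 0.692), with a 95% interval from −0.75 to 0.23. It was −0.15 without A4, −0.50 without A5 and −0.12 without A6, and −0.44 with a pseudocount of 0.1. Few fragments stood behind these values, about 87, 109 and 118 in control mice and 45, 26 and 35 in A4, A5 and A6.

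Cp, the ferroxidase that works with ferroportin and also a marker of reactive astrocytes, was at 3.84 (A1), 3.72 (A2) and 3.47 FPKM (A3) in controls, against 5.93 (A4), 4.09 (A5) and 2.71 FPKM (A6) after depletion. A4 and A5 were above the control range and A6 below it. The group means were 3.68 ± 0.189 and 4.24 ± 1.62 FPKM (SD, n = 3 each), a log2 fold change of 0.12 ± 0.21 (SE, limma adjusted p = 0.868), and −0.11 without A4. Choroid plexus also makes Cp, and its markers had a summed level of 175 to 331 FPKM in control mice and of 75.7 in A4, 48.3 in A5 and 70.5 FPKM in A6. Ttr made up 91.6% of the markers tested, and for 7 of the 9 genes at least 1 depleted mouse was not below the control mice. What share of the Cp values these markers account for was not tested.

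**Figure D4:**
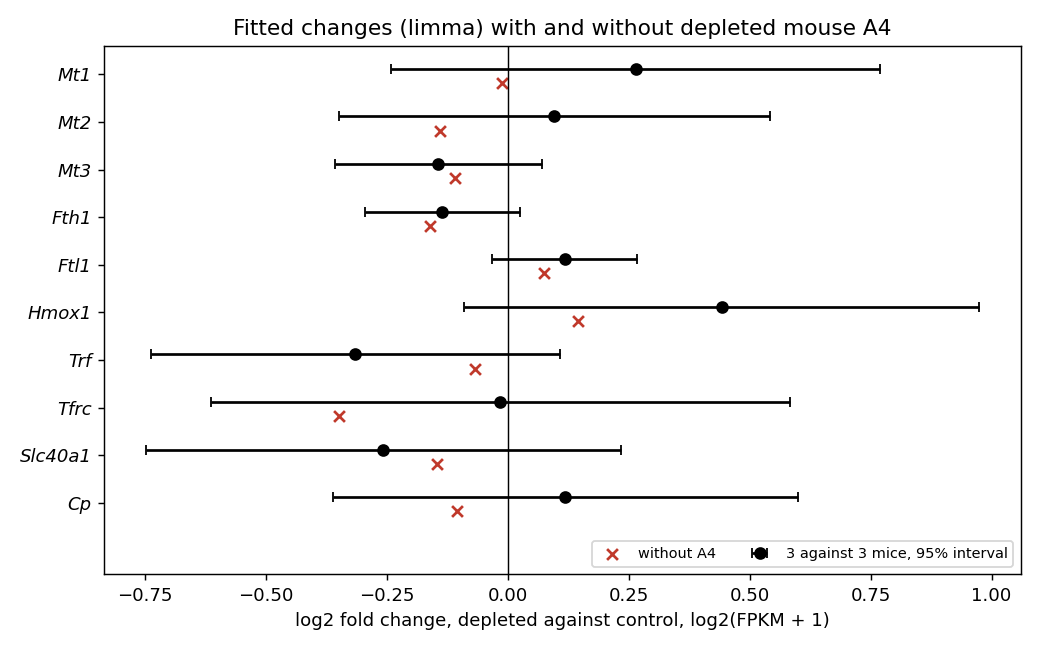
Log2 fold change of depleted against control mice on the log2(FPKM + 1) scale for the 10 genes, fitted with limma in all 6 mice (points, bars: 95% interval) and without A4 (crosses). All 10 intervals include 0, and the value changes sign without A4 for Mt1, Mt2 and Cp.

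The depleted mice differed in how far they lay from the control mice. All 10 genes lay outside the control range in A4, 6 above and 4 below, compared with 73.9% of all genes tested. In A5 and in A6 it was 7 of 10 genes, beside 62.1% and 66.5% of all genes. A difference of at least 1.5-fold from the control mean was seen for 6 of 10 genes in A4 (16.5% of all genes), for 0 in A5 (10.4%) and for 1, Slc40a1, in A6 (12.2%). In A4 these 6 genes were Hmox1 at 2.32, Mt1 at 1.76, Cp at 1.61 and Tfrc at 1.58 times the control mean, and Trf at 0.567 and Slc40a1 at 0.557 times. Across the 10 genes the median absolute log2 difference from the control mean was 0.57 in A4, beside 0.20 for all genes, 0.17 in A5, beside 0.13, and 0.12 in A6, beside 0.15.

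The other genes of iron handling gave a median near 0. Of 41 genes listed, 31 were tested, none passed the threshold, 12 had a higher and 19 a lower mean, and the median log2 fold change was −0.036. At an unadjusted p under 0.05, 0 were higher and 2 lower, Pcbp1 and Bmp6, which are named here after their values were seen. That is close to the 5.74% of all genes that were lower at this p. Without overlap, 6 of the 31 were lower and 2 higher, beside 9.38% and 8.21% of all genes tested. Whether the list differs from all genes was not tested. Pcbp1, a chaperone that delivers iron to ferritin, was at 75.6 (A1), 79.25 (A2) and 73.7 FPKM (A3) in controls, against 70.6 (A4), 65.2 (A5) and 61.6 FPKM (A6) after depletion, without overlap (log2 fold change −0.21, limma adjusted p = 0.411). Bmp6, the signal that induces hepcidin in liver, was at 3.28 (A1), 2.63 (A2) and 3.21 FPKM (A3) in controls, against 2.24 (A4), 1.97 (A5) and 2.42 FPKM (A6) after depletion, also without overlap (−0.33, limma adjusted p = 0.451). A4 was not the lowest mouse for either gene. The highest value of the list was 0.99 for Hpx, the heme scavenger hemopexin, with 0.460 (A1), 0.160 (A2) and 0.330 FPKM (A3) in controls, against 4.62 (A4), 1.51 (A5) and 0.240 FPKM (A6) after depletion, and the lowest was −0.34 for the ferrireductase Steap3. The RNAs of the iron regulatory proteins, Aco1 and Ireb2, which are named for the elements above after their values were seen, had log2 fold changes of −0.14 and −0.057 (limma adjusted p = 0.649 and 0.847), of which Aco1 was without overlap, at 8.09 (A1), 7.55 (A2) and 7.45 FPKM (A3) in controls, against 7.14 (A4), 7.24 (A5) and 6.30 FPKM (A6) after depletion.

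Among 29 tested genes of zinc and copper handling, 17 had a higher and 12 a lower mean, none passed the threshold, and the median log2 fold change was 0.016. At an unadjusted p under 0.05, 0 were higher and 3 lower, all of them zinc transporters: Slc39a2 (−0.52), Slc30a6 (−0.42) and Slc39a12 (−0.27), of which Slc30a6 and Slc39a12 are named after their values were seen. Of all genes tested, 5.74% were lower at this p. Without overlap, 5 of the 29 were lower and 0 higher, beside 9.38% and 8.21% of all genes tested. Whether this list differs from all genes was not tested. Slc30a6, which moves zinc into the Golgi, was at 4.77 (A1), 4.90 (A2) and 4.57 FPKM (A3) in controls, against 3.41 (A4), 3.62 (A5) and 2.92 FPKM (A6) after depletion, without overlap (limma adjusted p = 0.378). Slc39a2, an importer at the cell surface, was at 3.97 (A1), 3.92 (A2) and 4.55 FPKM (A3) in controls, against 1.42 (A4), 3.47 (A5) and 3.22 FPKM (A6) after depletion (limma adjusted p = 0.472). The highest value of the list was 0.19 for the copper pump Atp7b. Mtf1, the factor that binds metal response elements, was added after its values were seen and had a log2 fold change of 0.15 (limma adjusted p = 0.660), with 4.20 (A1), 4.76 (A2) and 4.71 FPKM (A3) in controls, against 5.33 (A4), 4.66 (A5) and 5.56 FPKM (A6) after depletion.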

How the data were processed

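Cortical RNA of 3 microglia-depleted mice at d10 and 3 control mice was compared, with groups taken from the labels, which give no litter, batch or date. According to their methods, the authors extracted RNA with Trizol, made TruSeq libraries with poly(A) selection and sequenced both ends over 75 bp, with alignment in TopHat and quantification of known transcripts in RSEM. The deposited table holds FPKM values per gene and mouse, which the authors scaled between libraries with TMM factors. The build is mm9 per the labels, and the annotation and the versions of these tools are not given in the sources used here. All 6 columns were used.

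Values were taken to log2(FPKM + 1), a scale on which the change of low genes is understated. Of 23366 genes, 4451 were listed at 0 throughout. The 14385 whose mean reached 0.5 FPKM were fitted with limma 3.58.1 in R 4.3.3 (eBayes with trend) and adjusted by Benjamini-Hochberg, with the threshold of 0.1 that the study used. No raw counts were used, so the study's count test was not repeated. An exact permutation test, two-sided, was applied to sums and ratios. With 1 library per mouse, p-values measure the spread between these mice.

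Depth was estimated from the spacing of low FPKM values of 1958 genes with 1 annotated transcript of 400 to 1500 bases, in which 77.7 to 83.2% of low values lay within 0.2 of a whole fragment. Any whole multiple of such an estimate also gives whole fragments, so fragment numbers are approximate and could be too low by a whole factor, and counting errors cover sampling of fragments only. Sequences came from GENCODE M21 (GRCm38) and RefSeq (GRCm38.p6), matched by symbol, and shared windows of 75 bases were counted among GENCODE M21 transcripts. No coordinates of the table were used.

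Simulated data had the real means and spreads, independent normal noise and an equal shift in all 3 depleted mice. The fit recovered 170 of 200 genes shifted by a log2 change of 1 (85%, 187 called). It recovered 61 of 200 shifted by 0.5 (30.5%, 67 called), and called 0 genes when none were changed. The simulation does not cover a change carried mainly by 1 mouse, such as A4. In the real data, 0 of 16 interferon response genes passed the threshold, at a median log2 fold change of 1.602.

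The 10 genes and all gene lists were chosen with earlier results of these data known. Besides the 10 genes, the text names the highest and lowest gene of each list, genes past the threshold where a result turns on them, copies that share sequence, and the 3 genes most like Mt1, Fth1 and Trf. Alternatives were other scalings (TPM, quantile normalization, median of ratios), a pseudocount of 0.1, a filter at 1 FPKM or none, robust eBayes or eBayes with no trend, a threshold of 0.05, array weights, omission of each mouse in turn, and a GC-content correction chosen after seeing the data. Other steps ran in Python 3.11.15 with scipy 1.17.1, numpy 2.4.6, matplotlib 3.10.9 and pandas 2.3.3.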

Additional observations from a re-analysis of the deposited data

How the results depend on the processing

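None of the 10 genes passed the threshold under any alternative. Of 160 values of the 10 genes under the alternatives, 150 kept their direction and 10 did not. Without A4 (depleted replicate 4), Mt1 was −0.012, Mt2 −0.14 and Cp −0.11. Leaving out each mouse in turn gave −0.012 to 0.49 for Mt1, −0.14 to 0.24 for Mt2 (−0.028 without A2), −0.35 to 0.23 for Tfrc (0.082 without A1, 0.068 without A5) and −0.11 to 0.35 for Cp. Array weights turned Mt2 to −0.061, quantile normalization turned Fth1 to 0.093, and the GC-content correction, chosen after seeing the data, turned Mt3 to 0.0084. The log2 difference of the Fth1 to Ftl1 ratio, recomputed under quantile normalization after seeing the data, turned from −0.25 to 0.044. The sum of the metallothioneins ran from −0.075 to 0.21 on the log2 scale when each mouse was left out (−0.011 without A2). With quantile normalization a value depends only on its rank, and Fth1 ranked 1 or 2 in every mouse. Its 0.093, which enters the 0.044 of the ratio, therefore reflects rank and not the size of its FPKM differences. The cause of the other turns was not tested. Over all genes, 4 passed the threshold, 2 without the trend and 20 with array weights, and from 2 to 29 when each mouse was left out (2 without A1, 29 without A5, 8 without A6). No paired analysis was possible because the labels number the mice 1 to 6 across both groups, so the groups share no replicate number. If the estimated depths hold, depth limits Hmox1, Slc40a1 and Cp most, above all in A5.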

Other observations

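Some cell type lists not described above differed little or went in mixed directions. Endothelial markers had a median log2 fold change of 0.091 over 12 genes, from −0.21 for Itm2a to 0.34 for Pecam1, an adhesion molecule of vessels. Meningeal and fibroblast markers had a median of −0.17 over 10 genes, from −0.66 for the growth factor Igf2 to 0.026 for the proteoglycan Dcn. Neuron markers had a median of −0.033 over 12 genes, from −0.33 for the postsynaptic gene Nrgn to 0.072 for Thy1. Monocyte and border macrophage markers had a median of −0.10 over 8 genes, from −0.85 for the chemokine Pf4 to 0.62 for Ly6c2. Acute inflammation genes had a median of −0.039 over 4 genes, from −0.18 for Cebpd to 0.081 for Socs3. Interferon response genes had a higher mean in all 16, with a median of 1.602, or 0.90 without A4, from 0.69 for Ifit2 to 2.69 for the chemokine Cxcl10. None of these genes passed the threshold of an adjusted p under 0.1 with limma, and 14 of the 16 interferon response genes reached an unadjusted p under 0.05, as did 4.79% of all genes in that direction.

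The genes whose pattern over the 6 mice was most like that of a member were sought among 6855 genes averaging 10 FPKM or more, by Pearson's r of log2(FPKM + 1). For Mt1 they were Eif3i (r = 0.996), Psmb4 (0.993) and Psap (0.991), and 65 genes had an r above 0.95. For Trf they were Fah (0.995), Xpo1 (0.994) and Ptplad1 (0.994), and 163 genes had an r above 0.95. For Fth1 they were Tada1 (0.988), Abhd16a (0.983) and Ntmt1 (0.981), and 7 genes had an r above 0.95. These are descriptions over 6 mice that share libraries and depth. For Mt1 and Trf, A4 was the extreme mouse. In it Eif3i was at 91.5 FPKM against 75.7 to 81.5 in the other mice, and Fah at 10.2 FPKM against 16.6 to 18.1. The order of the 6 mice was also shared, with a rank correlation (Spearman's rho) of 0.943 for Mt1 with Eif3i and 1 for Trf with Fah. How far r depends on A4 was not tested.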
